A study of Mus musculus with 4 samples.

Results

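The CXC chemokines described here are 10 genes, Cxcl1, Cxcl2, Cxcl3, Cxcl5, Cxcl9, Cxcl10, Cxcl11, Cxcl12, Cxcl14 and Cxcl16. They were taken by symbol from 18872 genes listed in the deposited tables, and grouped by the receptor they are known to engage. RNA was taken from primary epithelial cells of the colon after 3 days of 2% dextran sulfate sodium (DSS) in mice, an agent that damages the gut lining. The 2 knockout libraries (KO) are from mice labelled EZH2-IEC-/-, a knockout of Ezh2 in epithelial cells, where IEC is read as intestinal epithelial cell. Ezh2 is the enzyme of PRC2 that methylates histone H3. The 2 wild-type libraries (WT) are from mice given DSS in the same way. The promoter that drives the deletion, the strain and the age of the mice, and whether animals were pooled, are not given in the sources used here. Each comparison is between genotypes under DSS, and untreated mice were not analysed here.

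Chemokines are small secreted proteins that direct cell movement through receptors coupled to G proteins. Cxcl1, Cxcl2, Cxcl3 and Cxcl5 carry the residues glutamate, leucine and arginine before the paired cysteines of the family, bind Cxcr2 and call neutrophils. Cxcl9, Cxcl10 and Cxcl11 lack these residues, bind Cxcr3 and call activated T cells and natural killer (NK) cells. They are textbook interferon-gamma targets, whereas the Cxcr2 ligands are textbook targets of NF-κB, the transcription factor that TNF, interleukin-1, interleukin-17 and bacterial products activate. Cxcl12 binds Cxcr4 and the scavenger Ackr3 and is made mainly by stromal cells, Cxcl16 is a membrane-bound ligand of Cxcr6, and Cxcl14 is a homeostatic chemokine of epithelia and stroma.

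The estimated counts summed to between 5037367 and 5446998 per library. Ezh2 itself had 86 and 83 counts in KO libraries and 105 and 102 in WT libraries (log2 fold change -0.27 ± 0.17, adjusted p = 0.217), and these whole-gene counts cannot tell if an exon was deleted. Log2 fold changes are KO over WT and carry a standard error. The adjusted p is that of edgeR's quasi-likelihood test, corrected by Benjamini-Hochberg over the 13608 genes tested. FPKM is the deposited level per length of transcript and per library total. Epithelial markers dominated both groups, with summed FPKM of 13280 and 13820 in KO libraries and 11860 and 12270 in WT libraries over 10 genes. In such bulk samples, more cells of a type and more RNA per cell cannot be told apart. The files of replicate 1 and replicate 2 rest on different annotation versions, but each of the 10 chemokines had the same transcripts in every file that lists it.

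The 7 ligands of Cxcr2 and Cxcr3 were all higher in KO libraries, while the other ligands moved both ways. Of the 10 genes, 8 were called higher and 2 lower. Over all genes tested, 23.0% were called higher and 20.8% lower, 43.7% in either direction. Scaled by library totals alone, 2555 genes were called higher and 3465 lower, against 3126 and 2824 in the main test, and the calls among the 10 chemokines stayed at 8 and 2. The filter on low counts needs care here. Cxcl1, Cxcl2, Cxcl3, Cxcl10 and Cxcl11 reached its minimum in KO libraries only, and 88.5% of the 191 tested genes that did so were called higher. The 5 genes that reached it in all 4 libraries were Cxcl5, Cxcl9 and Cxcl16, called higher, and Cxcl12 and Cxcl14, called lower, against 23.5% called higher and 20.7% lower among the 12299 such genes. FPKM did not overlap between the groups for any of the 10 genes, with KO above WT for 8 and below for 2. Of all genes tested, 73.0% did not overlap, 30.4% with KO above and 42.5% with KO below.

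Among the Cxcr2 ligands, Cxcl5 was the most abundant and had the most counts. Cxcl5, known in the gut as a chemokine of the epithelium itself, had 88.62 and 63.59 FPKM in KO libraries, against 2.17 and 3.01 FPKM in WT libraries. Both KO libraries lay far above both WT libraries, although the KO libraries also differed from each other. The means were 76.1 ± 17.7 FPKM in KO libraries and 2.59 ± 0.594 FPKM in WT libraries (SD, n = 2 each). The log2 fold change was 4.97 ± 0.22 (adjusted p = 6.95e-07). Within the replicate 1 libraries it was 5.46 and within the replicate 2 libraries 4.50. Its mean level ranked above 91.4% of all genes tested in KO libraries and above 20.7% in WT libraries.

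Cxcl1 and Cxcl2, known in mice as KC and MIP-2, had few or no counts in WT libraries. Cxcl1 had 48 and 56 counts in KO libraries (9.40 and 10.87 FPKM), against 0 and 4 counts in WT libraries (0 and 0.81 FPKM). Cxcl2 had 56.08 and 69.05 counts in KO libraries (9.73 and 11.88 FPKM), against 0 and 3 counts in WT libraries (0 and 0.54 FPKM). Neither gene was counted in WT replicate 1, and the few WT counts of both came from replicate 2. Cxcl1 had a log2 fold change of 4.64 ± 0.60 (adjusted p = 0.000313), and summed counts were 26.4 times higher in KO, with an exact 95% interval for this ratio of 10.01 to 98.7. The size of this change depends on which WT library is used, with a log2 fold change of 3.70 without WT replicate 1 and at least a 17.3-fold rise without WT replicate 2. For Cxcl2 the ratio of summed counts was 42.3, with an interval of 14.2 to 208 (adjusted p = 0.000116). Its log2 fold change was 4.36 without WT replicate 1, and it was at least 20.8-fold higher without WT replicate 2. These intervals and bounds cover counting error only, the bounds being set against a floor of 3 counts per library.

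Cxcl3 had 19.92 and 18.95 counts in KO libraries (3.69 and 3.48 FPKM) and none in either WT library, at least 6.60-fold higher (adjusted p = 0.000596). Cxcl2 and Cxcl3 are close paralogs, and their counts show that reads were shared between them. Neither was whole in KO libraries, but together they came to 76 and 88 counts in KO libraries and to 0 and 3 counts in WT libraries. Summed into 1 row, a choice made after seeing the data, the pair had a log2 fold change of 5.68 ± 0.53 (adjusted p = 5.03e-05). The rise therefore does not depend on how reads were split within the pair, while the level of each gene does. Cxcl5 made up 79.5% and 70.8% of the FPKM of the 4 ligands in the KO libraries, against 100% and 69.0% in the WT libraries. Cxcl2 and Cxcl1 stood at similar levels in KO libraries, with a ratio of 1.03 and 1.09 within each library. The 4 ligands together reached 111.44 and 89.82 FPKM in KO libraries and 2.17 and 4.36 FPKM in WT libraries, a ratio of means of 30.8.

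Cxcl1, Cxcl2 and Cxcl3 lie in 1 gene cluster and moved together, so the 250 bases before their starts are shown (RefSeq, GRCm38.p6, gene strand). The windows are chr5:90890995-90891244, plus strand for Cxcl1, chr5:90903649-90903898, plus strand for Cxcl2 and chr5:90785851-90786100, plus strand for Cxcl3. Capitals mark matches to the NF-κB consensus, read on both strands.
Cxcl1: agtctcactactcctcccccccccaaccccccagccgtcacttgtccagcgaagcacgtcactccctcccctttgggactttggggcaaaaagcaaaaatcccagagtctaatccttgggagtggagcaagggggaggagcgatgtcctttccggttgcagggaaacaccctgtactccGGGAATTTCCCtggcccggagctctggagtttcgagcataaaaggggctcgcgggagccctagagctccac
Cxcl2: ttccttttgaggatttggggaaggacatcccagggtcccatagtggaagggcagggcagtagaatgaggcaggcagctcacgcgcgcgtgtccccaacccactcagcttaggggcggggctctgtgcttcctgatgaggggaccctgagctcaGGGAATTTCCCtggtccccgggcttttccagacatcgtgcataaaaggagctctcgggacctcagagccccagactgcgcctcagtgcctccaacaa
Cxcl3: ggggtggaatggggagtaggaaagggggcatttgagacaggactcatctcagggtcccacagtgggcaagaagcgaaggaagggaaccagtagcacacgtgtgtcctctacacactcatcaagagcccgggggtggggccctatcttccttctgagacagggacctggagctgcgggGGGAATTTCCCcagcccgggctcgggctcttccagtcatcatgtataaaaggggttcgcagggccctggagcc
All 3 windows hold the same 11 letters in capitals, which are a pair of overlapping matches, one on each strand. They begin 71, 97 and 73 bases before the start of Cxcl1, Cxcl2 and Cxcl3. Of 32851 RefSeq windows of this length, 7.25% hold a match to this consensus. Over the whole window, aligned identity was 56.1% between Cxcl2 and Cxcl3, 51.3% between Cxcl1 and Cxcl3 and 50.2% between Cxcl1 and Cxcl2. Other pairs of the 7 chemokines with a window had 42.6% to 49.6%. A match describes letters, not binding. Of the 10 genes, 7 had a window, and Cxcl5, Cxcl11 and Cxcl16 had none.

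**Figure D1:**
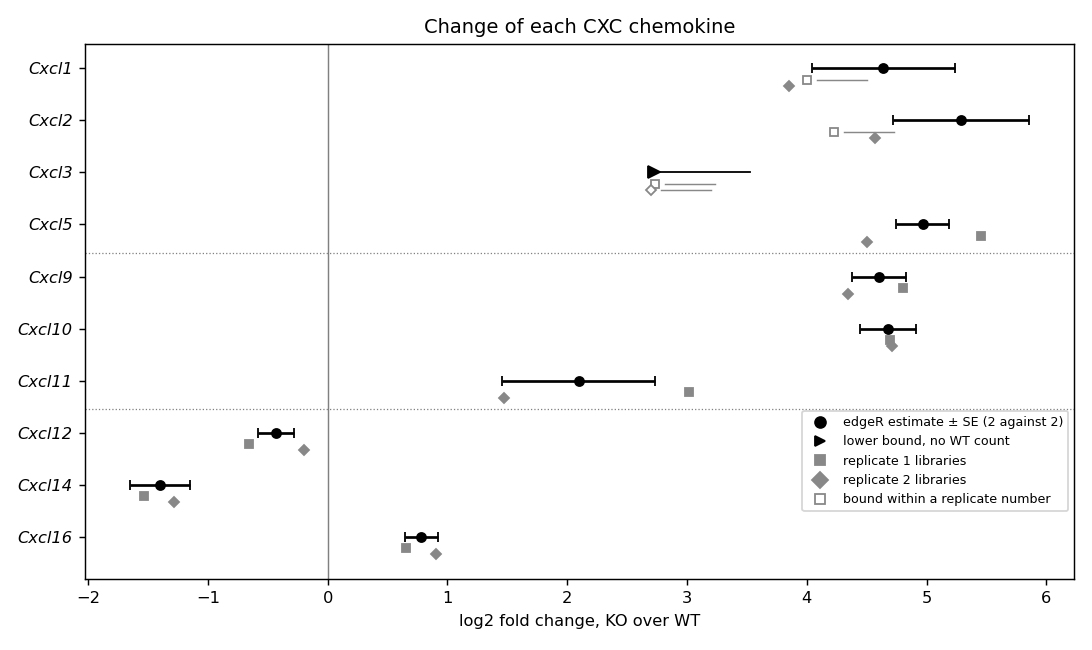
Log2 fold change, KO over WT, of each CXC chemokine. Black points are edgeR estimates with their standard error over 2 libraries against 2, the black triangle is the lower bound for Cxcl3 against a floor of 3 counts per WT library, and grey marks are the ratios within each replicate number, open where only a bound can be given. Cxcl1, Cxcl2, Cxcl5, Cxcl9 and Cxcl10 lie between 4.60 and 5.29, Cxcl11 at 2.09, and Cxcl12, Cxcl14 and Cxcl16 between -1.40 and 0.78.

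Among the Cxcr3 ligands, Cxcl9 and Cxcl10 rose by similar amounts. Cxcl10 had 30.34 and 29.57 FPKM in KO libraries, against 1.26 and 1.21 FPKM in WT libraries, and the libraries of each group were close to each other. Its log2 fold change was 4.68 ± 0.23 (adjusted p = 1.12e-06), with 4.70 and 4.71 within the replicate numbers. Cxcl9 had 17.78 and 14.25 FPKM in KO libraries, against 0.69 and 0.75 FPKM in WT libraries. Both KO libraries lay far above both WT libraries, with a log2 fold change of 4.60 ± 0.22 (adjusted p = 1.04e-06). Within each library, Cxcl9 stood at 0.586 and 0.482 of Cxcl10 in KO and at 0.548 and 0.62 of it in WT. The proportion of these ligands to each other thus overlapped between the genotypes while both levels differed.

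Cxcl11, the third ligand of Cxcr3, was low in every library. It had 1.36 and 1.64 FPKM in KO libraries (11.69 and 14.2 counts), against 0.18 and 0.63 FPKM in WT libraries (1.45 and 5.28 counts). The groups did not overlap, with a log2 fold change of 2.09 ± 0.64 (adjusted p = 0.0261). The call is not firm. It was lost without KO replicate 1 (adjusted p = 0.0995), without KO replicate 2 (0.154) and without WT replicate 1 (0.172, with a log2 fold change of 1.40), with no filter (0.057) and with DESeq2 (0.181), and the log2 fold change was 3.54 without WT replicate 2. As background, mice of the C57BL/6 strain carry a disrupted Cxcl11 that makes no functional protein, and the deposited annotation lists both a coding and a non-coding transcript for this gene, while the RefSeq table used for symbols gives it as a transcribed pseudogene. The 3 ligands together had 49.48 and 45.46 FPKM in KO libraries and 2.13 and 2.59 FPKM in WT libraries, a ratio of means of 20.1. Counts of Cxcl9 and Cxcl11 were not all whole, so some of their reads were assigned in part.

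The windows before Cxcl10 (chr5:92348890-92349139, minus strand) and Cxcl9 (chr5:92328080-92328329, minus strand) are shown because these genes rose together with near-equal fold changes. Capitals mark matches to the NF-κB consensus, to the core of the interferon-stimulated response element (GAAA, any 2 bases, GAAA) or to the gamma-activated site (TTCNNNGAA, where N is any base), read on both strands.
Cxcl10: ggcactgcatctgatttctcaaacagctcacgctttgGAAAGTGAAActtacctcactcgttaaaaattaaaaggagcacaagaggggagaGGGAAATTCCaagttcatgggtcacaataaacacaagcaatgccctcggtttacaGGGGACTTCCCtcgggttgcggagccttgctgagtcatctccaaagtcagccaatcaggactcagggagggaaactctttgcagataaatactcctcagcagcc
Cxcl9: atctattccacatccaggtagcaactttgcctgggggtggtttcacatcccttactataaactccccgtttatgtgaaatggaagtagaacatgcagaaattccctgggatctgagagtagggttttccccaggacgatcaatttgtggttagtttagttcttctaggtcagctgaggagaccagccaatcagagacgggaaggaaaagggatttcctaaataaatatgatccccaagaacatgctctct
The Cxcl10 window holds 1 match to the response element core, 213 bases before the start, and 3 matches to the NF-κB consensus, of which 2 overlap. The Cxcl9 window holds no match to any of the 3 motifs, which says only that these letters are not in this window. Of the 32851 windows, 2.98% hold the response element core and 7.02% the gamma-activated site. Among the other members, the Cxcl14 window holds a match to each of these (GAAACAGAAA and TTCTGAGAA) and the Cxcl12 window none of the 3 motifs.

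The ligands of other receptors changed by less and in both directions. Cxcl16, which is held on the cell surface by a stalk and shed by Adam10, had 13.94 and 15.76 FPKM in KO libraries, against 9.54 and 9.02 FPKM in WT libraries. Both KO libraries were higher, with a log2 fold change of 0.78 ± 0.14 (adjusted p = 0.00177). Cxcl14 had 2.21 and 2.58 FPKM in KO libraries, against 6.89 and 6.73 FPKM in WT libraries. Both KO libraries were lower than both WT libraries, with a log2 fold change of -1.40 ± 0.25 (adjusted p = 0.00189). Cxcl12, also known as SDF-1, had 10.87 and 11.72 FPKM in KO libraries, against 19.29 and 14.9 FPKM in WT libraries. The WT libraries were higher but also spread wider, and the log2 fold change was -0.43 ± 0.15 (adjusted p = 0.0435). That call was lost without KO replicate 1 (adjusted p = 0.111), without WT replicate 1 (log2 fold change -0.27, adjusted p = 0.283), with no filter (0.0734) and with DESeq2 (0.224). Cxcl12 has 3 listed transcripts, and its deposited length, a weighted mean over them, was 2276 and 2325 bases in KO libraries and 2179 and 2251 bases in WT libraries, which also enters its FPKM.

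**Figure D2:**
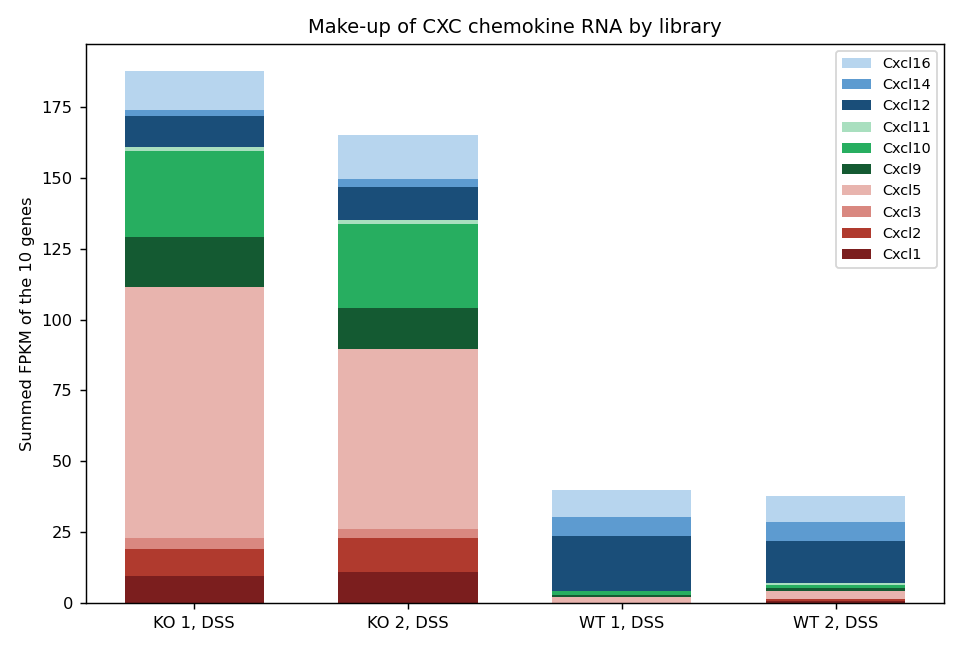
Summed FPKM of the 10 CXC chemokine genes in each library, stacked by gene, with Cxcr2 ligands in red, Cxcr3 ligands in green and the other ligands in blue. The sum is 187.94 and 165.34 in KO libraries and 40.02 and 37.6 in WT libraries. The blue part takes 14.4% and 18.2% of the KO bars and 89.3% and 81.5% of the WT bars.

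The order of the genes by level was therefore different in the genotypes. In KO libraries Cxcl5 was highest, followed by Cxcl10, and then by Cxcl9 and Cxcl16, whose libraries overlapped. Cxcl12, Cxcl2 and Cxcl1 came next, overlapping between 9.40 and 11.88 FPKM, and Cxcl3, Cxcl14 and Cxcl11 followed in that order with no overlap between neighbours. In WT libraries the order began with Cxcl12, Cxcl16, Cxcl14, Cxcl5 and Cxcl10, again with no overlap between neighbours. Below them Cxcl9, Cxcl1, Cxcl11 and Cxcl2 all lay under 1 FPKM, with Cxcl1 overlapping Cxcl9, and Cxcl3 had no count. Cxcl5 stood at 8.15 and 5.43 times the level of Cxcl12 within the KO libraries, against 0.113 and 0.202 times within the WT libraries. Cxcl16 stood at 1.28 and 1.34 times Cxcl12 in the KO libraries and 0.495 and 0.605 times in the WT libraries. Differences in fold change between members were not tested.

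**Figure D3:**
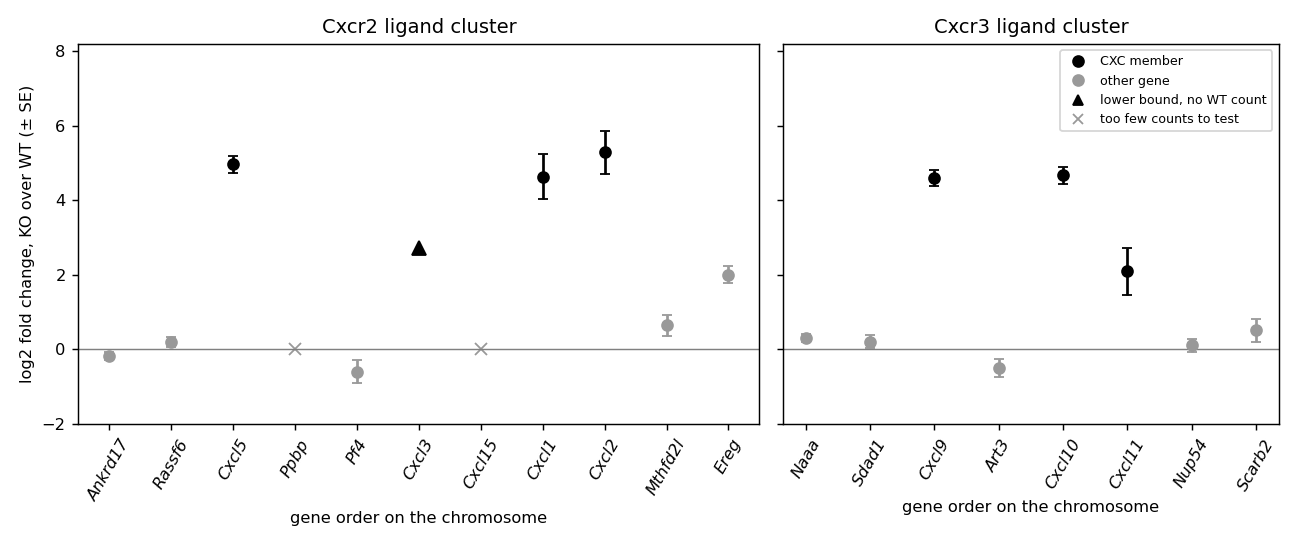
Log2 fold change, KO over WT, of the genes of both CXC clusters in their order on mouse chromosome 5, with 2 genes on either side. Points are edgeR estimates with standard errors, the triangle is the lower bound for Cxcl3, and crosses at 0 mark genes with too few counts to test. Members, in black, lie at 2.09 or above, while Pf4 and Art3 inside the clusters lie below 0.

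Genes that lie between the members in the 2 clusters on chromosome 5 were not called or had too few counts to test. Between Cxcl5 and Cxcl3 lie Ppbp and Pf4, which encode platelet chemokines. Pf4 had 8.16 and 6.53 FPKM in KO libraries and 14.15 and 9.72 FPKM in WT libraries, and its log2 fold change of -0.59 ± 0.32 did not pass (adjusted p = 0.163). Ppbp had at most 1 count and Cxcl15, between Cxcl3 and Cxcl1, at most 2.09 counts in any library. In the second cluster, Art3 spans Cxcl10 and Cxcl11 on the opposite strand, and the kit named in the labels does not mark strand. Art3 had 37 and 54 counts in KO libraries and 64 and 66 counts in WT libraries (log2 fold change -0.49, adjusted p = 0.136), so its counts did not rise with those of Cxcl10. Of the 8 flanking genes, Ereg, which encodes the growth factor epiregulin, passed with a log2 fold change of 2.01 (adjusted p = 0.000142), while Ankrd17, Rassf6, Mthfd2l, Naaa, Sdad1, Nup54 and Scarb2 did not pass.

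Cxcr3 and Cxcr6, receptors of T and NK cells, were higher in KO libraries, while Cxcr2 did not pass. Cxcr3 and Cxcr6 reached the minimum of the filter on low counts in KO libraries only. Of the 191 tested genes that did so, 88.5% were called higher. Of 9 receptor genes tested among 11, 2 were called higher and 1 lower, against 23.0% and 20.8% of all genes tested. Their median log2 fold change was 0.16, against -0.002 over all genes tested. Counts of calls in the lists below stand against the same shares. Cxcr3 had 1.39 and 2.75 FPKM in KO libraries and 0.25 and 0.6 FPKM in WT libraries (log2 fold change 2.34 ± 0.61, adjusted p = 0.0126). Cxcr6, the receptor of Cxcl16, had 3.03 and 4.17 FPKM in KO libraries and 0.42 and 0.71 FPKM in WT libraries (2.75 ± 0.42, adjusted p = 0.000852). Cxcr2 had 4.08 and 7.58 FPKM in KO libraries and 3.67 and 5.84 FPKM in WT libraries. Its groups overlapped, with the replicate 2 library higher in each genotype, and it did not pass (0.39 ± 0.31, adjusted p = 0.339). Ackr1, a decoy receptor of venules and red cells, had 2 and 0 counts in KO libraries and 15 and 12 counts in WT libraries, a count ratio of 0.0752 (exact 95% interval 0.00867 to 0.299, adjusted p = 0.00665). Ackr1 reached the minimum of the filter in WT libraries only. Cxcr4 and Ackr3, the receptors of Cxcl12, did not pass, at log2 fold changes of 0.16 and -0.49. The CXC ligand Cxcl13, which calls B cells, had 7.75 and 13.12 FPKM in KO libraries and 14.55 and 10.33 FPKM in WT libraries, also without passing (adjusted p = 0.701).

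Several inducers of Cxcr2 ligands were higher, while the NF-κB subunit genes Rela and Nfkb1 did not pass. Of 22 genes tested among 25 for TNF, interleukin-1, interleukin-17, Toll-like receptor and NF-κB signalling, 10 were called higher and 1 lower, with a median log2 fold change of 0.26. Tlr2, a receptor for bacterial lipopeptides, had 14.21 and 13.9 FPKM in KO libraries and 3.37 and 3.17 FPKM in WT libraries (2.20 ± 0.15, adjusted p = 7.29e-06). Nfkbiz, a nuclear cofactor of NF-κB, had 44.16 and 50.64 FPKM in KO libraries and 18.11 and 19.39 FPKM in WT libraries. Tnf, Tnfrsf1a and Myd88 rose by 3.79, 0.97 and 0.69 on the log2 scale. Rela and Nfkb1, which encode subunits of NF-κB, stood at log2 fold changes of 0.18 and 0.08 (adjusted p = 0.187 and 0.561). Il1r1 was the gene called lower, at -0.86, named here after its value was seen.

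NF-κB feedback genes and regulators of chemokine mRNA decay changed in both directions. Of 12 tested, 7 were called higher and 2 lower, with a median log2 fold change of 0.54. Zc3h12a, an RNase that degrades chemokine and cytokine mRNA, had 50.42 and 56.28 FPKM in KO libraries and 14.66 and 14.08 FPKM in WT libraries. Tnip3, Nfkbia and Tnfaip3, inhibitors of NF-κB signalling, rose by 2.44, 1.42 and 0.82 on the log2 scale. Tnip1, which encodes another such inhibitor, had a log2 fold change of -0.78 (adjusted p = 0.000299). Zfp36l1, a decay factor for AU-rich mRNA named after its value was seen, was the other gene called lower, at -1.03. Sigirr and Cyld, also restraints of this pathway, did not pass (adjusted p = 0.815 and 0.057).

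On the interferon side, Irf1, Irf8 and the feedback inhibitors Socs1 and Socs3 rose while both interferon-gamma receptor genes fell. Of 16 genes tested among 18, 6 were called higher and 3 lower, with a median log2 fold change of 0.28. Socs1, a feedback inhibitor of cytokine receptors, had 73.35 and 70.89 FPKM in KO libraries and 3.95 and 2.69 FPKM in WT libraries (4.56 ± 0.17, adjusted p = 2.32e-07). Socs3, another such inhibitor, rose by 3.25, and the transcription factors Irf1 and Irf8 by 1.25 and 1.10 on the log2 scale. Irf3 and Jak1 did not pass (adjusted p = 0.908 and 0.733). The genes called lower were Ifngr1, Ifngr2 and Irf7, of which Ifngr1 and Ifngr2, the receptor chains, had log2 fold changes of -0.24 and -0.38. These 3 were named after their values were seen. Ifng itself was under the filter, with 14 and 8 counts in KO libraries and 0 and 1 counts in WT libraries.

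Proteins that cut or hold chemokines changed in both directions. Of 9 genes tested among 10, 3 were called higher and 3 lower, against 23.0% and 20.8% of all genes tested. Their median log2 fold change was -0.23. Mmp7, a protease of injured epithelium, had 123 and 124 counts in KO libraries and 4 and 1 counts in WT libraries (5.58 ± 0.37, adjusted p = 6.82e-06), although its transcript list differs between the annotation versions. Mmp7 reached the minimum of the filter on low counts in KO libraries only, and 88.5% of such tested genes were called higher. Adam10, the sheddase of Cxcl16, rose by 0.47, and Ext1, an enzyme of heparan sulfate synthesis, by 0.62. Sdc4, a heparan sulfate proteoglycan, and Mmp2, a gelatinase of stroma, had log2 fold changes of -0.93 and -0.83, both past the threshold, and Sdc1, named after its value was seen, was the third called lower, at -0.29. Adam17 and Hspg2 did not pass (adjusted p = 0.0556 and 0.182). Of 5 partners of Cxcl12 and adhesion genes, 4 were called higher and 0 lower, with a median of 1.71. Mif, a cytokine that can also bind Cxcr2 and Cxcr4, had 304.1 and 293.8 FPKM in KO libraries and 97.5 and 98.83 FPKM in WT libraries. Cd74, the receptor of Mif, Icam1, which holds leukocytes, and Hmgb1, which pairs with Cxcl12, rose by 2.00, 1.74 and 0.35, while Vcam1 did not pass (adjusted p = 0.237). The FPKM of Hmgb1 overlapped between the groups, at 136.4 and 112.9 in KO libraries and 118 and 92.63 in WT libraries. Its transcript list differs between the annotation versions.

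**Figure D4:**
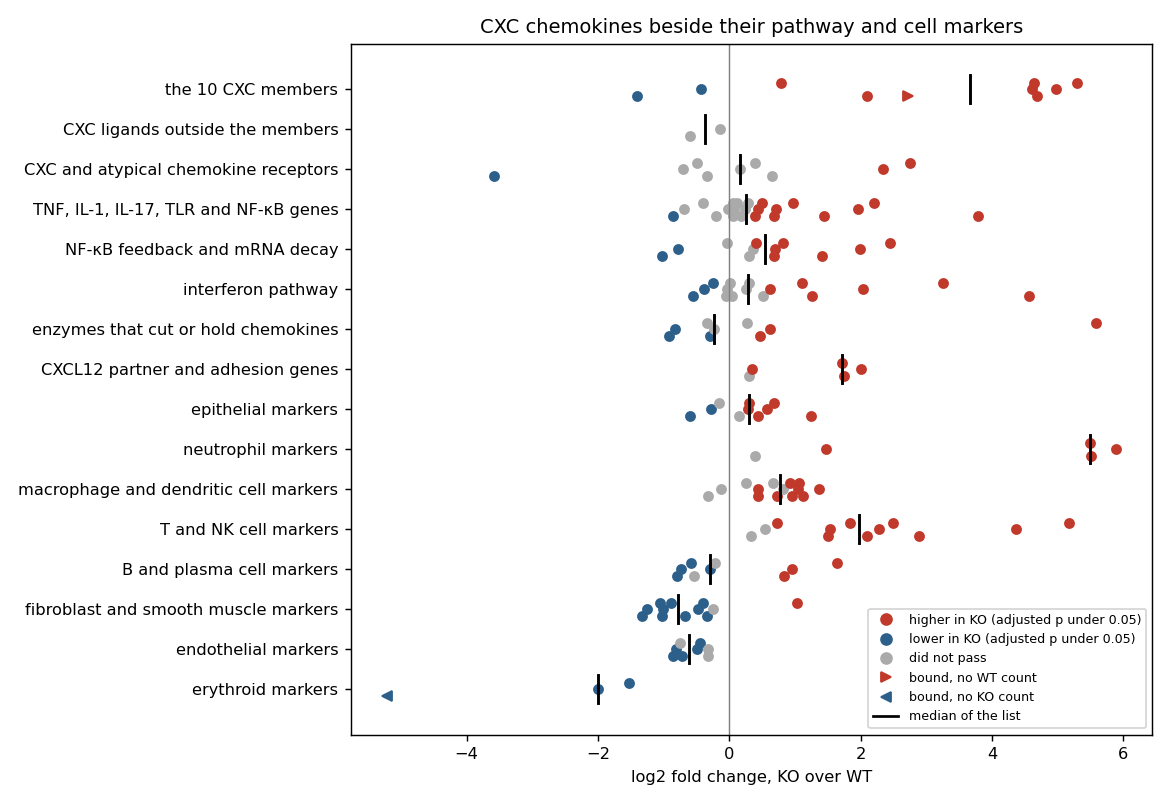
Log2 fold change, KO over WT, of every tested gene in each list around the chemokines. Points are genes, coloured by call, triangles are bounds for genes with no count in a genotype, and black lines are list medians with such genes at their bound. The chemokine median is 3.66, T and NK cell markers lie mostly above 0 (median 1.97) and fibroblast and smooth muscle markers mostly below 0 (median -0.78).

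Markers of other cells moved between the groups, and their part in the chemokine values was not tested. Of 12 T and NK cell markers tested among 15, 10 were called higher and 0 lower, with summed FPKM of 82.72 and 85.84 in KO libraries and 27.04 and 22.96 in WT libraries. Over the 4 libraries together, Gzmb and Lck had the highest mean FPKM, but not within each genotype. Gzmb had 13.79 and 10.67 FPKM in KO libraries and 0.56 and 0.14 FPKM in WT libraries, and Lck had 7.95 and 9.92 FPKM in KO libraries and 3.09 and 3.7 FPKM in WT libraries. Trac was listed for no library, and an uncounted gene cannot be told from one missing from the annotation. Of 14 macrophage and dendritic cell markers, 9 were called higher and 0 lower, with Lyz2 and C1qa the most abundant and sums of 482.7 and 528.6 FPKM in KO libraries and 344.5 and 370.5 FPKM in WT libraries. Among 14 neutrophil markers, Mpo, Elane, Ngp, Mmp8 and Stfa2 were likewise listed for no library, so their absence is not a measured 0. Camp, Retnlg and Fpr1, named after their values were seen, were listed but had too few counts to test. Camp had 1 and 0 counts in KO libraries and 0 and 1 counts in WT libraries. Retnlg had 3 and 3 counts and Fpr1 4 and 3 counts in KO libraries, with 0 counts in WT libraries. Ly6g, which only the replicate 2 files list, had 206.3 FPKM in the KO library and 240.6 FPKM in the WT library of that number, the highest level of any marker in the list. Of the 5 others tested, S100a8, S100a9, Ltf and Csf3r were called higher and none lower, Ltf and Csf3r being named after their values were seen. S100a8, S100a9 and Ltf can also be expressed by epithelia. S100a8, S100a9, Ltf and Gzmb reached the minimum of the filter on low counts in KO libraries only. Of the 191 tested genes that did so, 88.5% were called higher. The summed neutrophil list had 176.8 and 153.4 FPKM in KO libraries and 7.31 and 11 FPKM in WT libraries. Ly6g is not in this sum. S100a8, S100a9 and Ltf had 98.01, 51.53 and 19.61 FPKM in KO replicate 1 and 89.55, 32.35 and 20.3 FPKM in KO replicate 2. Most of the KO sums thus came from genes that epithelia can also express. Of the other genes of the sum that were tested, Csf3r was called higher and Cxcr2 did not pass.

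Markers of stroma, endothelium and red cells were mostly lower in KO libraries. Of 12 fibroblast and smooth muscle markers, 10 were called lower and 1 higher, with Tagln and Acta2 the most abundant and sums of 1070 and 1370 FPKM in KO libraries and 2350 and 2530 FPKM in WT libraries. Of 8 endothelial markers, 5 were called lower and 0 higher, with Plvap and Pecam1 the most abundant and sums of 30.14 and 36.12 FPKM in KO libraries and 55.55 and 53.45 FPKM in WT libraries. All 3 erythroid markers tested among 7 were called lower. Hba-a2 had no count in either KO library, against 37.69 and 40.6 FPKM in WT libraries, and Hba-a1 had 10.91 and 23.32 FPKM in KO libraries and 67.14 and 38.6 FPKM in WT libraries. These near-identical genes share reads, so their separate levels are uncertain. The list had sums of 13.13 and 27.15 FPKM in KO libraries and 118.5 and 93.11 FPKM in WT libraries. Slc4a1 was listed for no library. Of 9 B and plasma cell markers, 3 were called higher and 4 lower, against 23.0% and 20.8% of all genes tested. Jchain and Xbp1 were the highest in mean FPKM over the 4 libraries, with Sdc1 above Xbp1 in WT libraries. The B and plasma cell list had sums of 482 and 544.5 FPKM in KO libraries and 396.7 and 378.6 FPKM in WT libraries. Of the 10 epithelial markers, 6 were called higher and 2 lower, with a median log2 fold change of 0.30. Krt8 and Krt19 were the most abundant and were called higher. The 2 called lower were Epcam and Cdh1, at -0.27 and -0.60, named after their values were seen. Whether the level of Cxcl12 follows the share of stromal cells, or that of Cxcl9 and Cxcl10 the share of lymphocytes, was not tested.

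The genes with profiles most like the ligand with the most counts over all 4 libraries in each receptor group were found by Euclidean distance of centred log2 CPM over the 4 libraries. That choice does not follow the level per length or hold within each genotype, since Cxcl10 was above Cxcl9 in FPKM in every library and Cxcl16 had more counts than Cxcl12 in KO libraries. For Cxcl5 the nearest genes were S100a9, S100a8, Mfsd2a, Myot and Iigp1, at distances of 0.222 to 0.552. S100a9 had 51.53 and 32.35 FPKM in KO libraries and 0.78 and 1.13 FPKM in WT libraries, so it too was higher in KO replicate 1 than in KO replicate 2. Myot had 4.94 and 3.9 FPKM in KO libraries and 0 FPKM in WT libraries. Its distance to Cxcl5 therefore depends on the prior count of 2 added before taking logs, and the size of its change is not measured. For Cxcl9 they were Ak4, Dhrs9, Ces2f, Trim15 and Sprr1a, at 0.254 to 0.413, with log2 fold changes of 4.22 to 4.73. For Cxcl12 they were Zfp292, Cxxc5, Scrn1, Inpp5f and Castor2, at 0.021 to 0.05, of which Zfp292 passed the test (log2 fold change -0.45, adjusted p = 0.0247). These distances describe 4 libraries and carry no test.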

How the data were processed

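RNA was measured in 4 libraries of colon epithelial cells, 2 per genotype, after 3 days of 2% DSS. Per the labels' protocols, Trizol RNA went into an Illumina TruSeq RNA kit. Per the file headers, the authors deposited for each library an expected count, which need not be whole, an FPKM value and a transcript length per gene. Bowtie2 and BWA stand in the submitters' processing notes, their roles unstated, beside the human build hg19, although the transcripts listed are mouse RefSeq records. No source used here names the tool that made the counts. Symbols came from the RefSeq table of GRCm38.p6, which matched 99.72% of gene identifiers, and promoter windows from RefSeq in the same build. A gene absent from 1 file entered as 0 there.

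Differences were tested on rounded expected counts by edgeR 4.0.16 (R 4.3.3, filterByExpr with a minimum count of 10, TMM factors of 0.9647 to 1.036, quasi-likelihood test, 2 against 2, two-sided, adjusted p under 0.05). A standard error is the unsigned log2 fold change over root F. Fits were checked on simulated data in which only genes with a mean count of at least 20 were given a change. That check therefore does not cover changes in genes with fewer counts, such as Cxcl3 and Cxcl11. Counts differed by a chi-square of 2.95 per degree of freedom within KO and 2.18 within WT, against 38.25 to 44.59 between groups, so each library was kept as a replicate. Nothing in the labels ties each library to its own mouse. The p-values therefore reflect library spread alone, which may be technical.

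Bounds use a floor of 3 counts per library, and intervals cover counting error only. Likeness used log2 CPM with a prior count of 2. Members and lists were chosen with earlier results of these data known. From each list up to 5 genes past the threshold with the smallest p and the 2 most abundant of the others were named. From each marker list came the 2 with the highest mean FPKM over all 4 libraries and those listed for no library. Cxcr2 was added as the receptor of the first group. One gene that this rule names is not reported here. The likeness rule took the 5 nearest genes to the member with the most counts in each receptor group, among tested genes that are not members. Alternatives were other scalings, filters and tools (DESeq2 1.42.0, limma 3.58.1 on log2 FPKM with pseudocounts of 1 and 0.1), genes with the same transcripts, a replicate block and each library left out.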

Additional observations from a re-analysis of the deposited data

How the results depend on the processing

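Across 14 to 16 alternatives each, Cxcl1, Cxcl2, Cxcl3, Cxcl5, Cxcl9, Cxcl10, Cxcl14 and Cxcl16 kept their direction and passed, and Cxcl11 and Cxcl12 kept their direction and lost the call in 5 and 4. The number of chemokines called lower fell to 1 with no filter and with DESeq2, and was 1 to 2 with a library left out. The number called higher was 7 to 8 with a library left out, and 6 with a mean count of at least 20, which removes Cxcl3 and Cxcl11. DESeq2 called 1721 genes lower, against 2824 in the main test, and 2196 higher, against 3126. With a library left out, 2442 to 3053 genes were called higher and 2133 to 2711 lower. Higher genes made up 52.5% of calls with TMM, 42.4% with library totals alone, where the median log2 fold change of all genes was -0.103, and 43.7% with limma on log2(FPKM + 1). The summed FPKM of Cxcl12, Cxcl14 and Cxcl16 had a log2 ratio, KO over WT, of -0.22, and summed counts one of -0.047. It was 0.28 when the median of the 3 genes replaced the sum. The median gene was Cxcl12 in KO libraries and Cxcl16 in WT libraries, so that last ratio sets different genes against each other. With the replicate block, 3855 genes were called higher and 3548 lower, and the block changed no call among the 10 chemokines (8 higher and 2 lower). The labels do not say that numbers mark pairs, and deviations of same-numbered libraries had a correlation of 0.176 over 9009 genes. The cause of the lost calls was not tested. With 4 libraries of about this depth, genes such as Cxcl3 and Cxcl11 rest on fewer than 20 counts in each library.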
